A study of Oryza sativa with 8 samples.

Results

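Roots of indica rice lines labelled as tolerant and as sensitive to cold were compared after transfer to 10 °C, and the genes described here are all rice loci that received a p-value in that comparison. Of 42189 gene IDs in the authors' deposited table, 42004 were rice loci with a LOC_Os identifier, and 35835 of these had a p-value. The remaining 6169 loci had a mean of 0 reads in every library, and the 185 other IDs had no reads either. An adjusted p-value was deposited for 23446 of the 35835 loci. The other 12389 fell under the filter on low means, and the lowest mean still tested was 5.36 normalised counts.

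Each group gave 2 libraries, and each library pooled the roots of 4 plants of about 30 days, at the stage of 3 leaves. The tolerant line was sampled at 10 °C, and so was the sensitive line. Both lines were also sampled at 28 °C, tolerant and sensitive roots again with 2 libraries each. These groups serve here to set the difference in the cold beside the difference in the warm. Their libraries also entered the authors' fit, which gave the errors and p-values in the cold, and each locus's mean over all libraries. Both are IRGA breeding lines whose names share a stem, and all plants grew in nutrient solution under the same photoperiod. How long the roots were cold is not settled by the labels, which give 24 h under RNA extraction but up to 10 days under treatment and in the titles of the cold samples. The word "biological" is all that the labels say of the replicates, so the p-values measure the spread between these libraries, part of which may be technical. Values per library were not used here. Levels are therefore means over a group of 2 libraries, without a standard deviation, and the error of each difference is the standard error (SE) in the authors' deposited table.

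Rice is a plant of warm climates, and chilling at the seedling stage slows water and nutrient uptake, growth and cell wall synthesis in its roots. The known transcript response includes CBF/DREB factors, which switch on protective genes such as dehydrins, and genes of abscisic acid and jasmonate signalling. Lines that differ in cold tolerance can differ in how strongly such genes respond, in constitutive expression, or in the alleles they carry at linked loci. LOC_Os identifiers come from an annotation of a japonica genome, whereas both lines are labelled indica. None of the files used here pairs an identifier with a gene name, so loci are given below by identifier alone. Gene groups are given as lists of loci written from general knowledge of rice, and values of list members are given without their identifiers.

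Relative sequencing depth was similar in both cold groups, with size factors of 0.818 to 0.991 in tolerant libraries and 0.679 to 0.959 in sensitive libraries, against 1.10 to 1.25 in the 28 °C libraries. A count of 0 reads over a group of 2 libraries left room for up to 1.66 normalised counts in tolerant roots and 1.83 in sensitive roots at 10 °C. Of loci that mark leaf tissue (light-harvesting proteins and the small subunit of Rubisco), all 10 listed had reads in both lines. Their levels summed to 2137 normalised counts in tolerant roots and 5595 in sensitive roots at 10 °C, which was 0.0104% and 0.0260% of all normalised counts. Loci of the root metal transporter list summed to 9401 normalised counts in tolerant roots and 11303 in sensitive roots.

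In the cold, tolerant roots differed from sensitive roots at 681 loci, which was 2.9% of those tested (a deposited adjusted p of the authors' table below 0.05, referred to below as called). Of these, 307 were higher in tolerant roots (1.31% of the loci tested) and 374 were lower (1.6%). The typical called difference was large, with a median log2 difference of 1.63 among the loci called higher and -1.94 among those called lower. A log2 difference of at least 1, a change of 2 fold or more, was seen in 235 loci called higher and 347 called lower. A log2 difference of at least 4 was seen in 50 and 76. The smallest absolute log2 difference called was 0.57. Over all loci tested the median log2 difference was -0.00. The scaling by size factors pulls this median toward 0, so a shift common to most loci could not have shown. Without adjustment, 3023 loci had a p below 0.05.

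**Figure D1:**
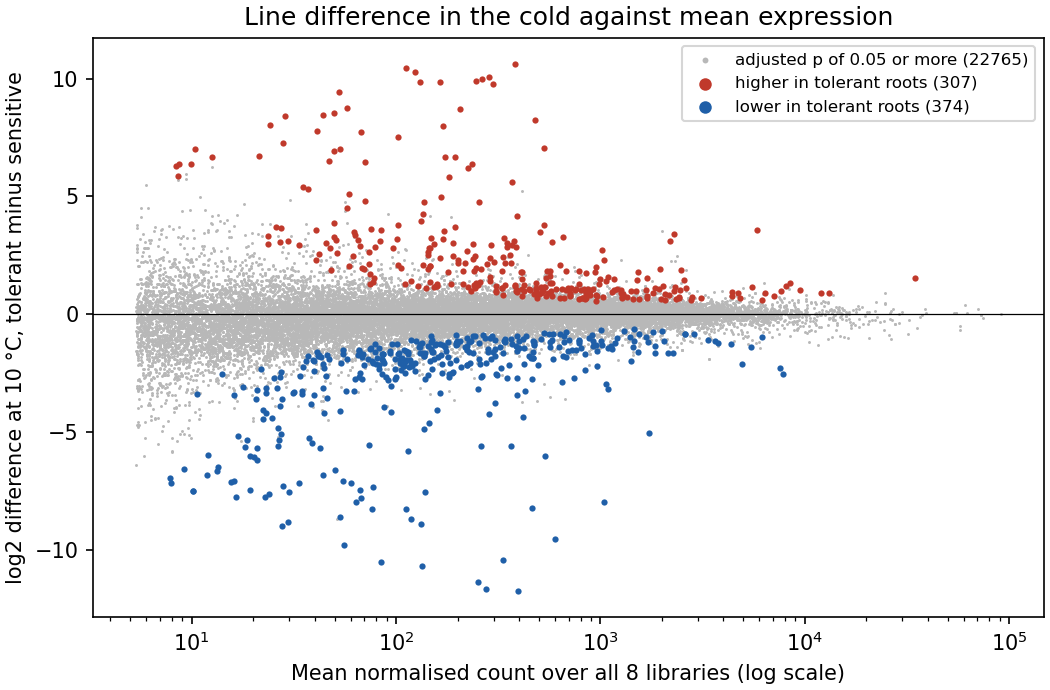
Log2 difference at 10 °C, tolerant minus sensitive roots, of the 23446 tested loci (y axis) against the mean normalised count over all 8 libraries (x axis, log scale), with red points called higher and blue points called lower in tolerant roots. Called loci spread from large differences at low counts to a median absolute log2 difference of 1.04 in the bin of loci with the highest means.

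The balance of directions moved with expression. Loci were split by mean into 4 bins of equal size. In the bin with the lowest means (5.36 to 47.1 normalised counts), 26 were called higher and 79 lower in tolerant roots. The second bin held 90 and 152, the third 109 and 93, and the bin with the highest means 82 and 50. Among loci above the median of mean expression, adjusted over those alone, 190 were called higher and 140 lower, a share of 57.6% higher, against 45.1% over all calls. Precision also moved with expression: the median SE was 0.97 in the lowest bin and 0.26 in the highest. For 9012 loci, 38.4% of those tested, the 95% interval of the log2 difference lay within -1 to 1, so that a difference beyond 2 fold was outside the interval. That share was 0.136% in the lowest bin and 74.0% in the highest.

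Loci with a high normalised count that were higher in tolerant roots included some with a low count in the warm. Counts here are not divided by gene length, so levels are compared between groups and not between loci. LOC_Os01g46570 stood at 13949 normalised counts in tolerant roots and 6209.7 in sensitive roots at 10 °C, and at 909 and 1029 at 28 °C. Its log2 difference in the cold was 1.17 ± 0.26 (SE; adjusted p = 0.000744, authors' deposited table). LOC_Os09g24440 had 4923 and 2302 normalised counts at 10 °C, tolerant before sensitive, and 1636 and 1586 at 28 °C. Both loci were thus near equal in the lines at 28 °C and about 2 fold apart in the cold. LOC_Os09g37910 reached 5015 normalised counts in tolerant roots and 1360.1 in sensitive roots at 10 °C (log2 difference 1.88 ± 0.24, adjusted p = 2.56e-12, authors' deposited table). At 28 °C it had 2254 in tolerant roots and 1336 in sensitive roots, a difference that was not called.

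Other loci of this group had levels in the warm that were no lower than in the cold. LOC_Os03g28330 had 11435 normalised counts in tolerant roots and 3919 in sensitive roots at 10 °C, against 64442 and 59205 at 28 °C. LOC_Os03g52630 had 8177 in tolerant roots and 3549 in sensitive roots at 10 °C, beside 8711 and 12066 at 28 °C. LOC_Os07g10770 had 7298 and 3590.5 at 10 °C, and 12402 and 14642 at 28 °C. In each of the 3, the tolerant level was at least 2.03 fold the sensitive one in the cold, and no difference was called in the warm. LOC_Os07g18050 and LOC_Os09g26560 were unlike them, since both were called higher in tolerant roots at both temperatures. The first had 2942 normalised counts in tolerant roots and 1071 in sensitive roots at 10 °C, beside 1526 and 499 at 28 °C. The second had 2999 and 786 at 10 °C, and 2906 and 1099 at 28 °C.

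Loci lower in tolerant roots with a high normalised count in the cold were mostly ones that stood far lower in the warm. LOC_Os07g09420 had 4538 normalised counts in tolerant roots and 26609 in sensitive roots at 10 °C, against 124 and 183 at 28 °C. Its log2 difference in the cold was -2.55 ± 0.73 (SE; adjusted p = 0.0213, authors' deposited table). LOC_Os04g55710 had 3676 in tolerant roots and 15827 in sensitive roots at 10 °C, against 82.2 and 59.1 at 28 °C. LOC_Os04g59190 had 5194 and 13828 at 10 °C, against 1975 and 961 at 28 °C. Each of these was thus expressed more in the cold than in the warm in both lines, with the lower cold level in tolerant roots. LOC_Os07g26630, with 4497 in tolerant roots and 10850.3 in sensitive roots at 10 °C, had 1059 and 1069 at 28 °C. LOC_Os07g08430 had 3834 and 8434 at 10 °C, against 1069.8 and 1170.2 at 28 °C. LOC_Os04g38950 had 1889 and 5964 at 10 °C, against 369 and 378 at 28 °C, and it was the most precise of these differences (log2 -1.66 ± 0.20, adjusted p = 1.28e-13, authors' deposited table).

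In 2 further loci of high count, the level in tolerant roots at 10 °C was near the levels of both lines at 28 °C. LOC_Os03g16860 had 3712 normalised counts in tolerant roots and 18179 in sensitive roots at 10 °C, beside 4317 and 4113 at 28 °C. LOC_Os05g25640 had 2773 and 6478 at 10 °C, and 3091 and 2646 at 28 °C. For both, the sensitive roots in the cold were the group whose level stood apart. Neither locus passed the test, given below, of a change in the line difference between temperatures. Its adjusted p was 0.0678 and 0.170 (Wald test derived from the deposited tables).

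At the other end, some loci of high count were close in the lines. The log2 difference at 10 °C was 0.03 ± 0.20 for LOC_Os03g08010, 0.04 ± 0.20 for LOC_Os03g08020, 0.06 ± 0.20 for LOC_Os03g08050 and 0.01 ± 0.22 for LOC_Os01g08700 (SE, authors' deposited table). The first had 45630.0 normalised counts in tolerant roots and 44744 in sensitive roots, and the last 23628 and 23534. Their 95% intervals lay within -0.5 to 0.5 on the log2 scale, as did those of 805 loci in all (3.43%).

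The differences with the widest separation were loci without a read in either library of one line. Of the loci called higher in tolerant roots, 26 had 0 reads over both sensitive libraries at 10 °C, and their levels in tolerant roots were 9.15 to 358 normalised counts with a median of 49.1. A further 16 had 1 to 3 reads. LOC_Os04g02490 had 358 normalised counts in tolerant roots and 0 reads in sensitive roots, at least 195-fold higher when set against a floor of 3 reads over the group. It had 1168 normalised counts in tolerant roots and 0 reads in sensitive roots at 28 °C as well. The tolerant level at 10 °C was at least 172-fold higher for LOC_Os12g15222, at least 154-fold for LOC_Os04g01330 and, for LOC_Os07g26100, at least 133-fold. LOC_Os11g09850 had 629 normalised counts in tolerant roots and 1 read over the sensitive libraries, a ratio of 1030.4 with a 95% counting interval of 185 to 40739. LOC_Os09g25934 had 592 against 1 read, a ratio of 969.9 with an interval of 174 to 38342. All 6 were also called higher in tolerant roots at 28 °C. These floors and intervals cover counting error only.

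Of the loci called lower, 29 had 0 reads over both tolerant libraries at 10 °C, with 9.14 to 704 normalised counts in sensitive roots and a median of 37.0. A further 26 had 1 to 3 reads. Chromosome 7 held 17 of these 29, whereas the 26 loci without reads in sensitive roots lay on 9 chromosomes, with at most 7 of them on any one. For comparison, chromosome 7 held 1786 of the 23446 loci tested and 68 of the 374 loci called lower. LOC_Os07g15440 had 0 reads in tolerant roots and 704 normalised counts in sensitive roots, at least 425-fold lower. LOC_Os04g02110 was at least 406-fold lower in tolerant roots, LOC_Os07g20164 at least 330.0-fold, LOC_Os07g18930 at least 204-fold and LOC_Os07g12540 at least 184-fold. These folds too cover counting error only. The SE of the log2 difference at 10 °C was 2.87 for LOC_Os07g20164 and 2.68 for LOC_Os07g18930 in the authors' deposited table. Their 95% intervals reached up to -5.77 and -5.44 on the log2 scale. LOC_Os04g02070 had 1 read over the tolerant libraries and 768 normalised counts in sensitive roots, a ratio of 1389 with a 95% counting interval of 249 to 54914.

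At 28 °C these loci split. LOC_Os04g02110 and LOC_Os04g02070 had 1 read each over the tolerant libraries at 28 °C too, and 433 and 564 normalised counts in sensitive roots. The 4 on chromosome 7 did not stay at 0 reads. LOC_Os07g15440 had 62.7 normalised counts in tolerant roots and 805 in sensitive roots at 28 °C, so the tolerant level was 7.79% of the sensitive one. For LOC_Os07g20164 that share was 6.79%, for LOC_Os07g18930 8.92% and for LOC_Os07g12540 9.34%. The first 3 had an SE of 1.58 to 2.48 for the log2 difference at 28 °C in the authors' deposited table, against a median of 0.48 over all loci tested there, and none of the 4 was called at 28 °C. Without values per library, these levels in tolerant roots at 28 °C may rest on 1 of the 2 libraries, and whether they do was not tested. Over the 29 loci, the tolerant libraries at 28 °C held 0 reads in 9, 1 to 3 reads in 5 and more than 3 reads in 15. Over the 26 loci without reads in sensitive roots in the cold, the sensitive libraries at 28 °C held 0 reads in 12, 1 to 3 reads in 7 and more in 7.

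Some loci at 0 reads in one line in the cold were well expressed in both lines in the warm. LOC_Os10g31540, chosen here after its values were seen, had 30.2 normalised counts in tolerant roots and 0 reads in sensitive roots at 10 °C, against 1003.5 in tolerant roots and 1079 in sensitive roots at 28 °C. LOC_Os08g43850, chosen likewise, had 9.15 in tolerant roots and 0 reads in sensitive roots at 10 °C, against 62.8 and 76.7 at 28 °C. In the other direction LOC_Os01g14880, chosen likewise, had 0 reads in tolerant roots and 9.14 normalised counts in sensitive roots at 10 °C, against 66.6 and 79.0 at 28 °C.

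Set beside the same lines at 28 °C, most loci with a deposited call in the cold had none there. The authors' deposited table for 28 °C called 211 of 27576 loci tested (0.765%), 108 higher and 103 lower in tolerant roots, from libraries that are not shared with the comparison in the cold. Of the loci called at 10 °C, 147 were called the same way at 28 °C, which was 21.6% of the calls at 10 °C and 69.7% of those at 28 °C. A further 4 were called in opposite directions. When each table's test statistics were divided by their own robust spread (1.21 at 10 °C and 0.675 at 28 °C), 272 loci were called at 10 °C and 801 at 28 °C, so the larger number of calls in the cold rests on the deposited statistics as they stand. The number called the same way at both temperatures was then 148, which was 54.4% of the calls at 10 °C, so that under this setting most of the calls in the cold were called in the warm too.

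The typical difference was larger among loci called at both temperatures, although some of the widest differences at 10 °C, such as those of the 4 loci on chromosome 7 above, were not called at 28 °C. Called higher in tolerant roots at both, 75 loci had a median log2 difference of 4.76 at 10 °C and 4.71 at 28 °C. Called lower at both, 72 loci had medians of -4.60 and -3.37. Loci called at 10 °C and not at 28 °C had smaller differences: the 230 called higher had a median of 1.22 at 10 °C and 0.00 at 28 °C, and the 300 called lower had medians of -1.79 and -0.07. At 28 °C, 117 of the 230 (50.9%) and 160 of the 300 (53.3%) had the same sign as at 10 °C. These groups were formed from the calls themselves. Needing a call at both temperatures favours large differences, and lacking one at 28 °C favours small differences there. The medians are thus descriptions. A call at one temperature alone is no test of a change, which needs the difference of both differences.

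**Figure D2:**
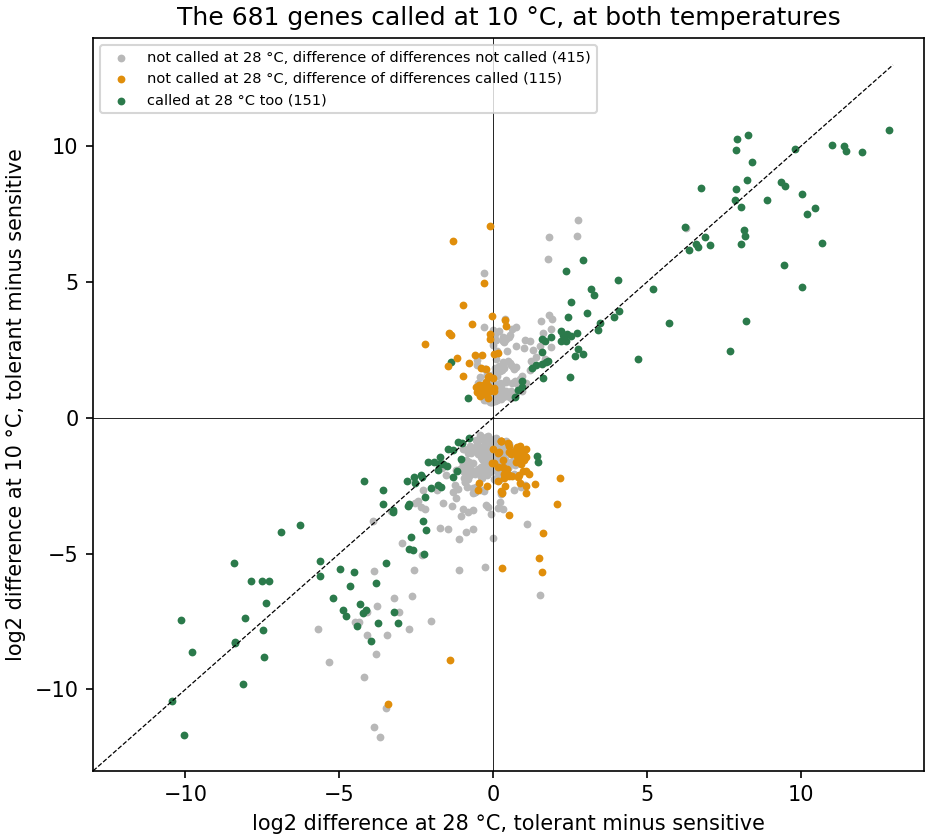
Log2 difference, tolerant minus sensitive roots, at 10 °C (y axis) against 28 °C (x axis) for the 681 loci called at 10 °C, with the dashed line marking equal differences. The 151 loci called at 28 °C too (green) include 9 that passed the test of a change between temperatures, 4 of them with opposite signs, and 115 loci not called at 28 °C passed that test (orange).

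A Wald test of that change, derived from both deposited tables, called 168 of 23446 loci (0.717%), with a line difference more positive at 10 °C in 59 and more negative in 109. Of the 681 loci called in the cold, 124 (18.2%) were among them, 56 called higher and 68 called lower in tolerant roots. Among loci above the median of mean expression the test called 49 and 49, so the lean toward negative changes was not seen there. For the other 557 loci called in the cold, the data do not show that the line difference changed with temperature.

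The loci with the smallest p in that test fell into a few patterns of levels. LOC_Os03g11650 had 957 normalised counts in tolerant roots and 195 in sensitive roots at 10 °C, beside 1201 and 1819.8 at 28 °C, a change of 2.90 ± 0.43 (SE) on the log2 scale (adjusted p = 1.95e-07, Wald test derived from the deposited tables). LOC_Os10g31630 had 165 and 12.1 at 10 °C, and 958 and 982 at 28 °C, a change of 3.80 ± 0.56. LOC_Os09g31430 had 86.4 and 10.0 at 10 °C, and 2356 and 6299 at 28 °C. LOC_Os11g20090 had 103 and 15.8 at 10 °C, and 704 and 3251 at 28 °C. Between temperatures, all 4 were called lower in the cold in sensitive roots, and the last 3 in tolerant roots as well, in the authors' deposited tables. LOC_Os06g44034 was another case: it had 339 normalised counts in tolerant roots and 61.6 in sensitive roots at 10 °C, beside 356 and 1.70 at 28 °C. There the tolerant roots were near level between temperatures, and the line difference was smaller in the cold, a change of -5.25 ± 0.97 on the log2 scale. The sensitive level at 28 °C rested on 4 reads over the group, so the size of that change is loosely known.

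Among loci called lower in tolerant roots, LOC_Os07g28260 had 331 normalised counts in tolerant roots and 1729.8 in sensitive roots at 10 °C, beside 542 and 742 at 28 °C. Its change of line difference was -1.93 ± 0.36. LOC_Os04g38950, described above, changed by -1.63 ± 0.29 (adjusted p = 6.97e-05, Wald test derived from the deposited tables). LOC_Os06g35700 had 14.2 in tolerant roots and 126 in sensitive roots at 10 °C, beside 27.8 and 6.54 at 28 °C. Between temperatures, these 3 were called higher in the cold in sensitive roots in the authors' deposited tables. In tolerant roots LOC_Os04g38950 was called higher in the cold, LOC_Os07g28260 was called lower (log2 change -0.71) and LOC_Os06g35700 was not called.

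Only 4 loci were called in opposite directions at both temperatures. LOC_Os09g29490 had 48.4 normalised counts in tolerant roots and 151 in sensitive roots at 10 °C, beside 552 and 201 at 28 °C. LOC_Os07g14740 had 106 and 281 at 10 °C, and 224 and 82.6 at 28 °C. LOC_Os02g17780 had 28.5 and 6.86 at 10 °C, and 154 and 396 at 28 °C. LOC_Os07g09870 had 3644 and 2210.1 at 10 °C, and 1395 and 2433 at 28 °C. The first pair was lower in tolerant roots in the cold and higher in the warm, and the other pair the reverse. All 4 also passed the test of the change.

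Called loci were unevenly spread over the chromosomes. On chromosome 9, 94 of 1314 tested loci were called in the cold (7.15%), on chromosome 7 97 of 1786 (5.43%) and on chromosome 11 71 of 1326 (5.35%). The other 9 chromosomes ranged between 1.82% and 3.57%. Together chromosomes 7, 9 and 11 held 38.5% of the calls with 18.9% of the loci tested. Direction was uneven on chromosome 7, with 29 loci called higher and 68 lower in tolerant roots, and near even on chromosome 9, with 49 and 45. Chromosomes 7, 9 and 11 also had the largest shares called at 28 °C, with 40, 51 and 40 loci (1.89%, 3.28% and 2.39% of those tested). The other chromosomes ranged between 0.0293% and 0.843% there, so the uneven spread was not particular to the cold. Chromosome 3 held 60 called loci in the cold and 1 at 28 °C.

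Within chromosomes the calls lay close together. Windows of 25 neighbouring tested loci with at least 7 called, merged where they overlapped, gave 16 stretches on 7 chromosomes. They held 155 of the 681 calls (22.8%) in 2.15% of the loci tested, so 30.8% of the loci in the stretches were called, against 2.29% outside them. The stretches were found from these calls, so that excess is a description. The calls at 28 °C were not used to find them and come from other libraries, although both tables stem from 1 fit and share each locus's estimate of spread: 76 of the 155 (49.0%) were called the same way at 28 °C inside the stretches, against 71 of 526 (13.5%) outside. In contrast, 16 of the 155 (10.3%) passed the test of a change with temperature, against 108 of the 526 (20.5%). The median absolute log2 difference of called loci was 2.92 inside and 1.69 outside. Each stretch held loci called in both directions, in shares from near even to 13 of 14 in one direction.

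**Figure D3:**
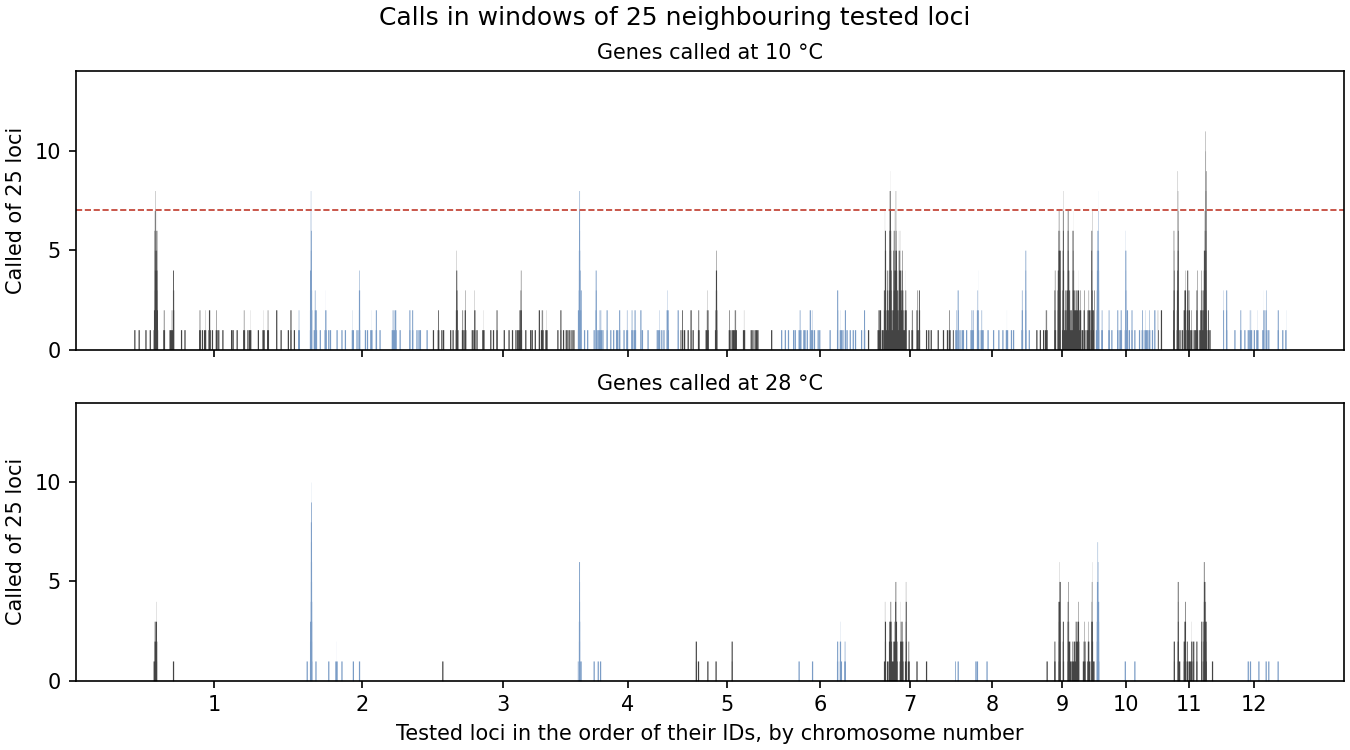
Number of called loci in each window of 25 neighbouring tested loci, at 10 °C (upper panel) and at 28 °C (lower panel), in the order of the locus identifiers on chromosomes 1 to 12, with the dashed line at 7 calls. Peaks on chromosomes 1, 2, 4, 7, 9, 10 and 11 at 10 °C stand at or above the line, and chromosomes 3, 5, 6, 8 and 12 have none.

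On chromosome 7 the 4 stretches held 36 called loci. In the one from LOC_Os07g12230 to LOC_Os07g13500, 14 of 43 tested loci were called, 13 of them lower in tolerant roots, and the median log2 difference over all 43 was -0.87. Its called locus with the highest level was LOC_Os07g12800, with 119 normalised counts in tolerant roots and 774 in sensitive roots at 10 °C, beside 271 and 227 at 28 °C. The single locus called higher there, LOC_Os07g13500, had 17.6 normalised counts in tolerant roots and 0 reads in sensitive roots. The stretch from LOC_Os07g18050 to LOC_Os07g18980 had 8 of 20 loci called, the one from LOC_Os07g09420 to LOC_Os07g09914 7 of 24, and the one from LOC_Os07g15440 to LOC_Os07g17220 7 of 24. In the last, LOC_Os07g15490 was higher, with 855 in tolerant roots and 344 in sensitive roots at 10 °C.

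Chromosome 9 held 5 stretches with 47 called loci. Between LOC_Os09g25490 and LOC_Os09g26560, 14 of 48 loci were called and 12 of these were higher in tolerant roots, 8 of the 14 in the same way at 28 °C. A neighbour called lower, LOC_Os09g25500, had 483 normalised counts in tolerant roots and 872 in sensitive roots. From LOC_Os09g27360 to LOC_Os09g27950, 9 of 32 were called. There LOC_Os09g27570 was higher, with 618 in tolerant roots and 306 in sensitive roots, and LOC_Os09g27950 lower, with 393 and 811. From LOC_Os09g29239 to LOC_Os09g29825, 9 of 29 were called. LOC_Os09g29600 was higher there, with 151 and 27.0, and LOC_Os09g29820 lower, with 272 and 729.5. The stretch from LOC_Os09g31430 to LOC_Os09g32100 had 7 of 25 called, only 1 of them the same way at 28 °C. It held LOC_Os09g31490, with 100.1 and 14.2, and LOC_Os09g31478, with 1954 and 4472. In the fifth, from LOC_Os09g38777 to LOC_Os09g39310, 8 of 27 were called, including LOC_Os09g38777 with 278 and 141 and LOC_Os09g39240 with 55.5 and 209.

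On chromosome 11, 16 of 44 loci were called between LOC_Os11g36160 and LOC_Os11g37630, more than in any other of the 16 stretches, and 9 of them the same way at 28 °C. LOC_Os11g37510 was higher there, with 1176 normalised counts in tolerant roots and 660.0 in sensitive roots, and LOC_Os11g37230 lower, with 1015 and 2761. Between LOC_Os11g08980 and LOC_Os11g09864, 10 of 27 were called, 8 of them higher. LOC_Os11g09170 had 1174 in tolerant roots and 569.6 in sensitive roots there, and LOC_Os11g09820 123 and 1185. The adjacent stretches on chromosome 1 held 10 of 40 called loci between LOC_Os01g08660 and LOC_Os01g09280, and 7 of 24 between LOC_Os01g09370 and LOC_Os01g09740. In the first of them LOC_Os01g08890 had 151 in tolerant roots and 4929 in sensitive roots at 10 °C, beside 311 and 1488 at 28 °C, so the lines differed at both temperatures and more in the cold. LOC_Os01g09280 was higher in the same stretch, with 921 and 455. In the second, LOC_Os01g09560 was higher, with 6892 and 4516, and LOC_Os01g09740 lower, with 64.4 and 162.

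The stretches on chromosomes 2 and 10 had the largest shares, of the 16, of calls at both temperatures. From LOC_Os02g05744 to LOC_Os02g06170, 10 of 28 loci were called and 8 of the 10 in the same way at 28 °C. LOC_Os02g05790 had 423 normalised counts in tolerant roots and 119 in sensitive roots at 10 °C, beside 543 and 228 at 28 °C, and its neighbour LOC_Os02g05780 went the other way, with 295 and 796, and 488 and 1625. From LOC_Os10g03570 to LOC_Os10g04342, 9 of 29 were called and 7 in the same way at 28 °C. LOC_Os10g03570 had 164 and 1225 at 10 °C, and 217 and 1004 at 28 °C, and LOC_Os10g04342 had 702 and 248, and 599 and 105. On chromosome 4, 10 of 39 were called from LOC_Os04g01650 to LOC_Os04g02754, with 9 lower in tolerant roots. They included LOC_Os04g02754, with 789 and 1716.

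Of 319 loci in 33 gene lists, 286 were tested and 15 were called (5.24%, against 2.9% of all loci tested), 6 higher and 9 lower in tolerant roots. No member was called in 22 lists. With statistics divided by their robust spread, calls were left in only the cellulose synthase, photosynthesis, heat shock and natural variation lists, 1 in each. Over all loci tested, that setting called 272. The median log2 difference over the 286 was -0.08. The lists were written with earlier results of these data known, so their counts are descriptions.

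Cellulose synthases, the plasma membrane enzymes that spin the cellulose of primary and secondary cell walls, held the most calls of any list. Of 9 tested, 4 were higher in tolerant roots in the cold and none was lower, with a median log2 difference of 0.75, against -0.00 over all loci tested. The log2 difference was positive in all 9, as in 49.9% of all loci tested, and 7 had an unadjusted p below 0.05. In the called member with the highest count the levels were 7298 normalised counts in tolerant roots and 3590.5 in sensitive roots. The next had 6032 and 3043, and the other two 804 against 398 and 742 against 257. Their log2 differences were 1.02 ± 0.31, 0.99 ± 0.25, 1.01 ± 0.25 and 1.53 ± 0.24 (SE, authors' deposited table). At 28 °C the list went the other way, with a median of -0.24, 1 member called lower and none higher. Summed over the 9, the level was 24106.7 in tolerant roots and 13589.7 in sensitive roots at 10 °C, beside 47812.5 and 61560.1 at 28 °C. Both lines thus had a lower sum in the cold than in the warm, and the line with the higher sum changed. The change of the line difference was called for 2 of the 9, at 1.51 ± 0.34 and 1.66 ± 0.32. With the statistics divided by their robust spread, 1 of the 4 was still called, the one with 742 normalised counts, which lay in the stretch on chromosome 9 that starts at LOC_Os09g25490.

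**Figure D4:**
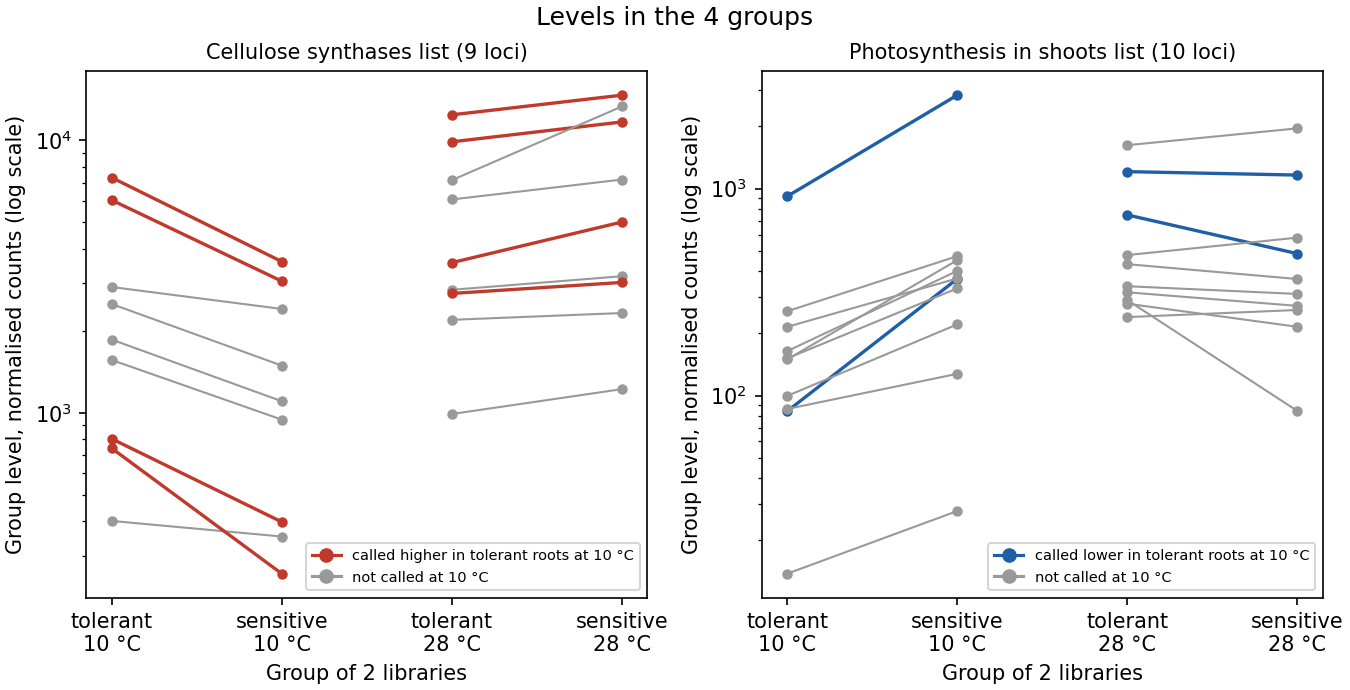
Group levels in normalised counts (y axis, log scale) of each tested locus of the cellulose synthase list (left) and of the list of photosynthesis loci (right), in tolerant and sensitive roots at 10 °C and at 28 °C, with lines joining the same locus in both lines at one temperature and no error bars. In the cold all 9 cellulose synthase loci are higher and all 10 photosynthesis loci lower in tolerant roots, with 4 and 2 called, and neither holds at 28 °C.

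Photosynthesis loci of shoots were the reverse. Of 10 tested, none was higher and 2 were lower in tolerant roots in the cold, with a median log2 difference of -1.14 and negative values in all 10. The called members had 918 normalised counts in tolerant roots and 2831 in sensitive roots, and 84.0 and 366. At 28 °C the median was 0.17 with none called, and the summed levels were 5948 in tolerant roots and 5692 in sensitive roots. In bulk RNA, fewer cells of a type and less RNA per cell cannot be told apart. The part of leaf-type tissue or plastid RNA in the other line differences was not tested.

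Proliferation lists held no call, with positive medians. DNA replication loci, such as those of the helicase that opens origins, had a median log2 difference of 0.45 with 8 of 9 positive. Mitotic cyclins and kinases had a median of 0.44 with 6 of 6 positive and values of 0.24 to 0.83. Unadjusted p was below 0.05 in 3 and 2 of them. At 28 °C the medians were 0.07 and 0.05.

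Lists of the stress and hormone response held few calls, and their medians lay on both sides of 0. WRKY factors, which regulate defence and stress genes, had a median log2 difference of -0.998, with 9 of 9 negative and 1 called lower, at 102 normalised counts in tolerant roots and 351 in sensitive roots. Stress NAC factors, which bind promoters of dehydration and salt response genes, had 4 of 4 negative and a median of -0.77 with none called. The member with the widest difference had 1291 and 4243 normalised counts, a log2 difference of -1.72 ± 0.82 (SE; adjusted p = 0.339, authors' deposited table). Abscisic acid synthesis and breakdown had 6 of 7 negative, a median of -0.95 and none called. Gibberellin metabolism and signalling had 7 of 8 negative, a median of -0.72 and none called. Of 11 loci of jasmonate synthesis and perception, 1 was lower, at 78.6 normalised counts in tolerant roots and 368 in sensitive roots at 10 °C, and at 11.9 and 2.61 at 28 °C. JAZ repressors, which hold jasmonate signalling in check, had a median of -0.23 over 11 with none called. Diterpenoid phytoalexin clusters, which make antimicrobial compounds, had 1 of 7 lower, at 4.96 and 73.8. This call and that of jasmonate synthesis and perception were lost at an adjusted p below 0.01 and with rescaled statistics. Type-A cytokinin response regulators had a positive median, of 0.38, with 7 of 8 positive and none called. Compatible solute enzymes, for trehalose, proline and other solutes, had 8 of 9 positive, a median of 0.22 and none called.

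No line difference was called in the list of cold regulators, which holds CBF/DREB, ICE and MYB loci. Of 14 listed loci 9 were tested and none passed, against calls at 2.9% of all loci tested. The median log2 difference of the 9 was -0.34, with 2 positive. The one with the highest count had 10212 normalised counts in tolerant roots and 11652 in sensitive roots at 10 °C, beside 1794 and 2070 at 28 °C, a log2 difference of -0.19 ± 0.28 in the cold (SE; adjusted p = 0.860, authors' deposited table). Its 95% interval ran from -0.73 to 0.35. Only 2 of the 9 loci, this one included, had an interval within -1 to 1. A difference beyond 2 fold was thus not excluded for the others. Dehydrins and LEA proteins, which protect cells that lose water, had none of 7 called and a median of -0.11. That list summed to 20771 normalised counts in tolerant roots and 22776 in sensitive roots at 10 °C, and to 1787 and 1307 at 28 °C. Its SEs were wide, and no member had an interval within -1 to 1. Of clade A PP2C phosphatases, which shut off abscisic acid signalling, 1 of 7 was higher, at 4980.5 and 3138 normalised counts. That call was lost at an adjusted p below 0.01, with a log2 difference of at least 1 and with rescaled statistics. Clock loci had a median of -0.00 and 8 of 10 intervals within -1 to 1, the highest share of the 33 lists. Of 7 loci known from natural variation in cold tolerance, 1 was lower, at 272 in tolerant roots and 729.5 in sensitive roots. It lay in the stretch on chromosome 9 that starts at LOC_Os09g29239.

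**Figure D5:**
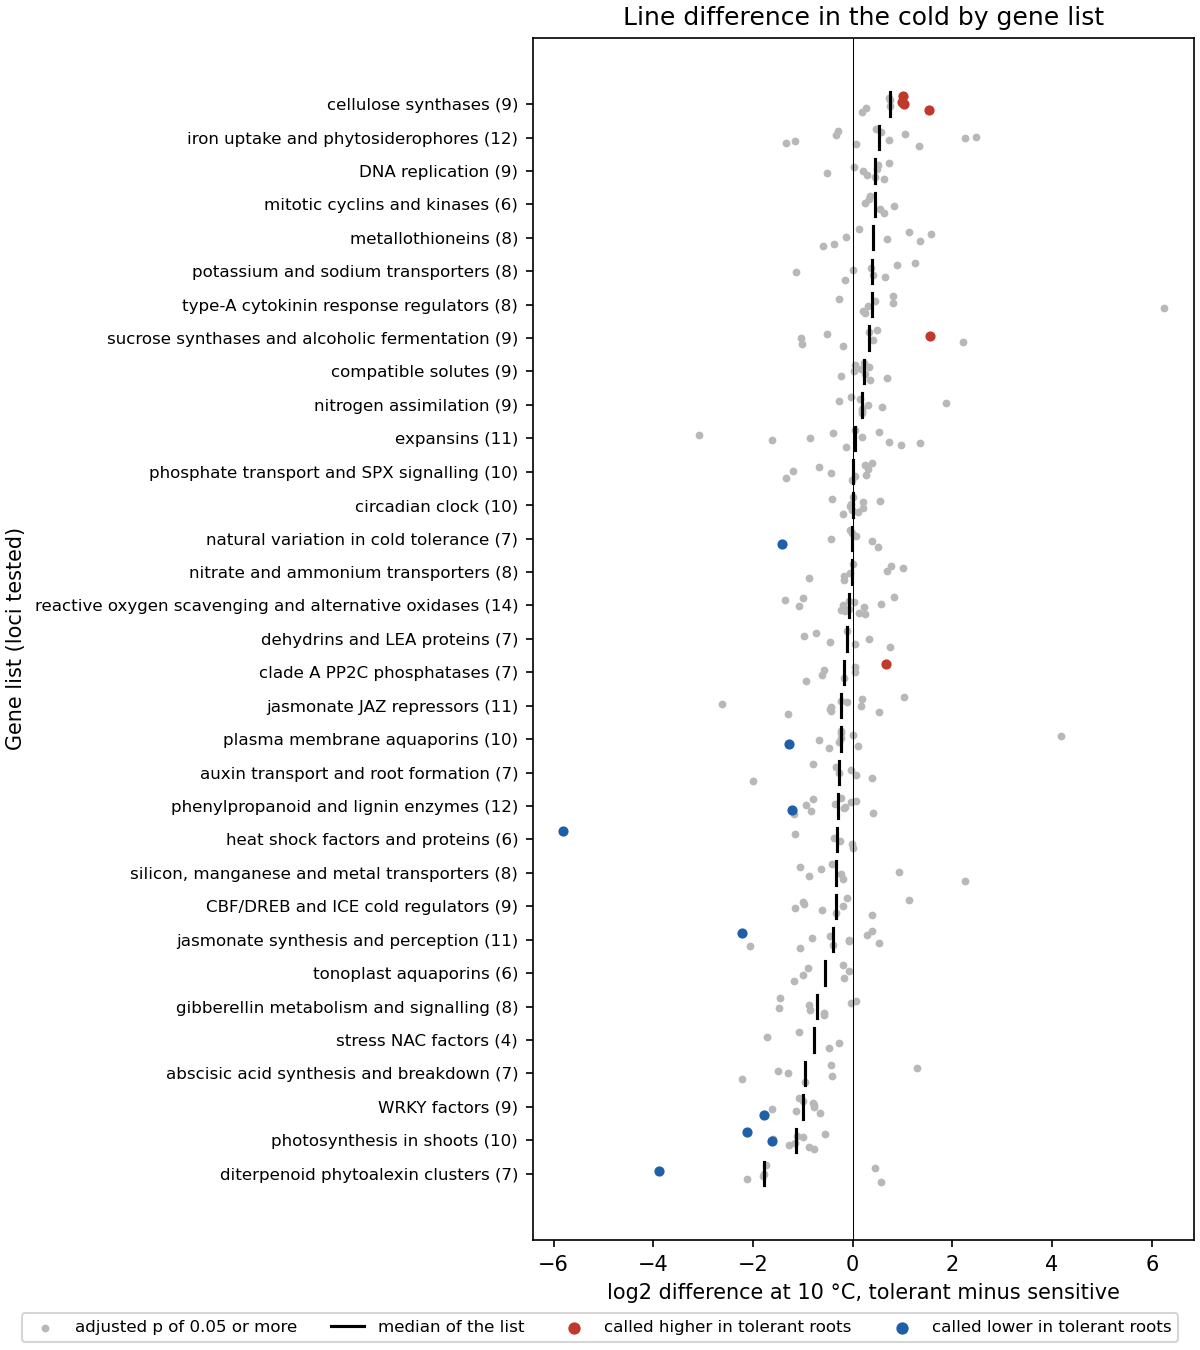
Log2 difference at 10 °C, tolerant minus sensitive roots (x axis), of every tested locus of the 33 gene lists, ordered by list median (black bars), with called loci in red (higher) and blue (lower). Cellulose synthases stand at the top with a median of 0.75, and photosynthesis loci and diterpenoid clusters at the bottom with -1.14 and -1.78.

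Water and nutrient transport lists held 1 call. Plasma membrane aquaporins, the water channels of root cells, had 1 of 10 lower in tolerant roots, at 4497 and 10850.3 normalised counts, and a median log2 difference of -0.24. That call was narrow (adjusted p = 0.0434, authors' deposited table) and was lost without the filter on low means, at the stricter threshold and with rescaled statistics. Tonoplast aquaporins, in the vacuole membrane, had 6 of 6 negative and a median of -0.55 with none called. The one with the highest count had 11716 in tolerant roots and 23337 in sensitive roots, a log2 difference of -0.99 ± 0.41 (SE; adjusted p = 0.214, authors' deposited table). Loci of iron uptake and phytosiderophores had a median of 0.52 at 10 °C and -1.01 at 28 °C, with none of 12 called at either temperature. Their summed level was 7613 in tolerant roots and 5014 in sensitive roots at 10 °C, beside 46916 and 81474 at 28 °C. SEs of 0.58 to 1.58 limit what that list can show. None was called among 8 loci of silicon, manganese and metal transport (median -0.33), 8 of nitrate and ammonium transport (-0.02), 10 of phosphate transport and signalling (0.01) and 8 of potassium and sodium transport (0.38). Nitrogen assimilation had none of 9 called and a median of 0.18.

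In carbon metabolism, 1 of 9 sucrose synthase and fermentation loci was higher in tolerant roots, at 11435 normalised counts against 3919 in sensitive roots (log2 difference 1.54 ± 0.38, adjusted p = 0.00327, authors' deposited table). Of 12 phenylpropanoid and lignin loci, 1 was lower, at 2773 and 6478. That call was lost at an adjusted p below 0.01 and with rescaled statistics. Of 6 heat shock loci, 1 was lower, at 5.12 and 289, and it was called lower at 28 °C too, at 3.23 and 160.1. It lay in the stretch on chromosome 1 that starts at LOC_Os01g08660. Reactive oxygen scavenging had none of 14 called and a median of -0.08. Nothing was called among 11 expansins (0.05), which loosen cell walls, 8 metallothioneins (0.40) and 7 auxin loci (-0.28).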

How the data were processed

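RNA-seq of poly-A RNA, read as single ends of 50 bp, was used through the authors' 4 deposited comparison tables, whose columns are those of DESeq2, per the file headers. The mean normalised signal per gene (counts over size factors), the log2 fold change with its SE, the Wald statistic (a score) and the p-value and adjusted p-value are all as deposited by the authors. The submitters' processing notes name Bowtie 0.12.7, while the name of the deposited tables points to STAR. For genome build, annotation, counter, strandedness and multiply matching reads, nothing is given in the sources used here, so paralogs, overlapping and antisense loci may share reads.

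All further values were computed with Python 3.11.15, numpy 2.4.6, pandas 2.3.3 and scipy 1.17.1, and figures with matplotlib 3.10.9. Group levels were solved from the mean and the fold changes. Size factors and table directions came from genes seen as a single read in 1 library (8 of 8 libraries). Reads over a group are the level times the summed size factors, taken as 0 below 0.6. With 0 reads, folds use a floor of 3 reads over the group, and with 1 to 3 reads the exact 95% conditional interval is given. The Wald test of the change between temperatures divides the difference of both log2 differences by the root of their summed squared SEs. Benjamini-Hochberg adjustment was over 23446 loci. Its code was run on simulated data with independent normal errors of exactly the deposited SEs. That run could not show whether those SEs are right for the real data. Loci named were, in each direction, the 8 with the highest cold level among calls with a log2 difference of at least 1, the 6 largest differences at 100 or more normalised counts, the 5 smallest derived p-values, the highest level per stretch, all opposite calls, called list members, and the 4 highest levels with an interval within -0.5 to 0.5. Members and lists were chosen with earlier results of these data known. Of 319 list loci, 0 matched a name in the reference table, so membership was not checked. Alternatives were stricter thresholds, other filters on low means and rescaled statistics.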

Additional observations from a re-analysis of the deposited data

Results flagged for a closer look

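The loci below, some of them described above only as members of a gene list, were singled out because the difference between tolerant and sensitive roots at 10 °C differed from that at 28 °C in the Wald test derived from the deposited tables. Values are the log2 difference at 10 °C minus that at 28 °C, so a positive value means relatively more in tolerant roots in the cold.

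Positive values were 4.92 for LOC_Os11g20090, 4.53 for LOC_Os09g31430, 3.80 for LOC_Os10g31630, 3.42 for LOC_Os02g17780 and 2.90 for LOC_Os03g11650. They were smaller for LOC_Os03g52630 at 1.67, LOC_Os09g25490 at 1.66, LOC_Os07g09870 at 1.52, LOC_Os01g54620 at 1.51, LOC_Os01g46570 at 1.35, LOC_Os01g09280 at 1.29 and LOC_Os09g24440 at 1.05.

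Negative values were -7.12 for LOC_Os07g12540, -5.25 for LOC_Os06g44034, -5.24 for LOC_Os06g35700, -4.41 for LOC_Os03g12500, -3.10 for LOC_Os09g29490 and -2.95 for LOC_Os07g12800. LOC_Os07g14740 followed at -2.84, LOC_Os01g08890 at -2.77, LOC_Os01g41710 at -2.75, LOC_Os04g59190 at -2.45, LOC_Os07g28260 at -1.93 and LOC_Os04g38950 at -1.63. The value of LOC_Os07g12540 rests on a group with 0 reads, so its size depends on how the fit treats that group and is no bound. Those of LOC_Os06g44034 and LOC_Os03g12500 rest on 4 and 6 reads over the sensitive libraries at 28 °C. LOC_Os06g44034 stands apart from the others in being called higher in tolerant roots at both temperatures, with a smaller difference in the cold.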

How the results depend on the processing

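No paired analysis was possible because the files used are comparison tables without values per library, and leaving out each replicate in turn could not be run for the same reason. With an adjusted p below 0.01, 403 loci were called at 10 °C in place of 681, 58 in place of 168 for the change between temperatures, 10 stretches in place of 16 and 9 list members in place of 15. With loci above the median of mean expression alone, 330 were called at 10 °C (190 higher and 140 lower), 95 at 28 °C, 45 the same way at both and 98 for the change (49 each way, against 59 and 109). With statistics divided by their robust spread, 272 were called at 10 °C and 801 at 28 °C. Requiring 10 of 25 called loci left 1 stretch, and 14 of 50 gave 4. The loci called at 10 °C under each of these settings were all among the 681. Of the loci named, 34 lost their call with rescaled statistics and 20 with the stricter threshold. Directions could not turn, since every setting uses the deposited log2 differences. Other settings kept counts within 1.5 times: without the filter on low means 597 were called at 10 °C, and with a log2 difference of at least 1, 582. Depth limits loci of low count, of which 12389 were not tested.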
